A study of Strongylocentrotus purpuratus with 5 samples.

Results

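The regions described here appeared as several separate stretches of accessible chromatin in the pooled peak list of 20 h sea urchin embryos and as 1 continuous stretch in the pooled peak list of 12 h embryos. They were selected on measured values, the bounds of the regions in both pooled lists: a 12 h region was a split region when it overlapped at least 2 regions of the 20 h list by 1 bp or more. There were 14088 split regions among 238838 regions of the 12 h list, which is 5.90%. The overlapping 20 h regions are called pieces, and the stretch of a 12 h region between neighbouring pieces is called a gap. The split regions held 29829 overlaps with pieces, made by 29694 different regions of the 258515 in the 20 h list, and 15741 gaps. Number of pieces, gap length and uncovered length follow from the rule and are given as a description without a test.

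Accessible chromatin was profiled by ATAC-seq, in which a transposase inserts sequencing adapters where the DNA is not wrapped in nucleosomes, in whole embryos of *Strongylocentrotus purpuratus* raised at 15 degrees Celsius. The 20 h group had 3 libraries from 2 biological replicates: 2 technical replicates of biological replicate 1, with nuclei from an earlier published preparation, and 1 library of biological replicate 2, with nuclei from a density gradient. The 12 h group had 2 biological replicates, both with nuclei from a density gradient, and is analysed here only as a pooled list. The labels name both ages hatching blastula, and neither genotype nor treatment is given for any group.

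An open stretch of chromatin is bounded by nucleosomes, and several neighbouring stretches can belong to the same cis-regulatory module, a stretch of DNA with binding sites for transcription factors that sets where and when a gene is expressed. In blastula embryos such modules are read by the regulatory genes that divide the embryo into territories. A peak caller turns read density into intervals, so that a closed stretch, a shallow dip and a call missed at low depth all appear as a gap in a merged list. So does a weak call dropped by a limit on the number of peaks.

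The lists differed in ways that touch every value below. The 20 h libraries held 248700 peaks in technical replicate 1 and 300000 in technical replicate 2 of biological replicate 1, where 300000 is the most that the authors kept, and 160654 in biological replicate 2. By their names, both pooled lists were held to the same limit before merging. How many weak calls the limit removed from them was not analysed here. The share of peaks with a q-value below 0.05 was 52.0%, 54.4% and 30.7% in these libraries. By the quality report of the processing, the libraries stood in the same order in filtered reads as in peaks, and technical replicate 1 alone was sequenced from both ends. In the same report technical replicate 2 had by far the highest share of duplicate reads. Its library complexity fell in the range that the report calls severe bottlenecking. The smallest distance between neighbouring regions was 46 bp in the pooled 20 h list and 59 bp in the pooled 12 h list, and in the libraries it was 46 bp, 62 bp and 72 bp, in the same order. Shorter separations do not occur in the list concerned. The study's methods give fewer mapped reads at 20 h than at 12 h. Both 12 h libraries were sequenced from both ends, by the quality report. The study also used different embryo batches, some of them from different seasons. Stage, read depth, sequencing from 1 or both ends, embryo batch and, for replicate 1, nuclear preparation therefore cannot be told apart in the comparison of the lists. Base composition and sequence of the gaps were not analysed here.

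Most split regions fell into a pair of pieces. There were 12632 regions with 2 pieces, 1292 with 3, 136 with 4, 24 with 5, 3 with 6 and 1 with 7. Split regions had a median length of 815 bp, with quartiles of 602 and 1118 bp, against 369 bp in the 132054 regions of the 12 h list that matched a 20 h region one to one and 325 bp over the whole 12 h list. Median length was 1331 bp in regions with 3 pieces and 1947 bp in regions with 4. Pieces had a median length of 278 bp, against 291 bp in the 20 h regions with a one-to-one match, so that the medians lay close together. The number of pieces thus went together with the length of the 12 h region, which sets how many 20 h regions can lie inside it.

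The share split moved with length over the whole range. Of 39830 regions of 150 to 199 bp 13 were split, which is 0.0326% (95% Wilson interval 0.0191 to 0.0558), a class too short to hold 2 whole regions of the shortest length in the 20 h list, 150 bp. The share was 3.85% at 400 to 499 bp, 15.9% at 600 to 799 bp, 47.0% at 1000 to 1499 bp and 75.2% (73.1 to 77.2) in the 1720 regions of 1500 bp or more. In that longest class 404 regions had 1 matching 20 h region and 23 had none. Among the 313 scaffolds with at least 200 regions in the 12 h list, the median share split was 5.70%, and it lay between 1.71% on scaffold 93, with 4 of 234, and 10.2% on scaffold 154, with 29 of 285. The intervals of these scaffolds, 0.667 to 4.31% and 7.18 to 14.2%, do not overlap, but they are the extremes of 313 and were picked for their values. The opposite arrangement, a 20 h region that overlaps 2 or more regions of the 12 h list, was counted 3910 times, in 1.51% of the 20 h list.

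**Figure D1:**
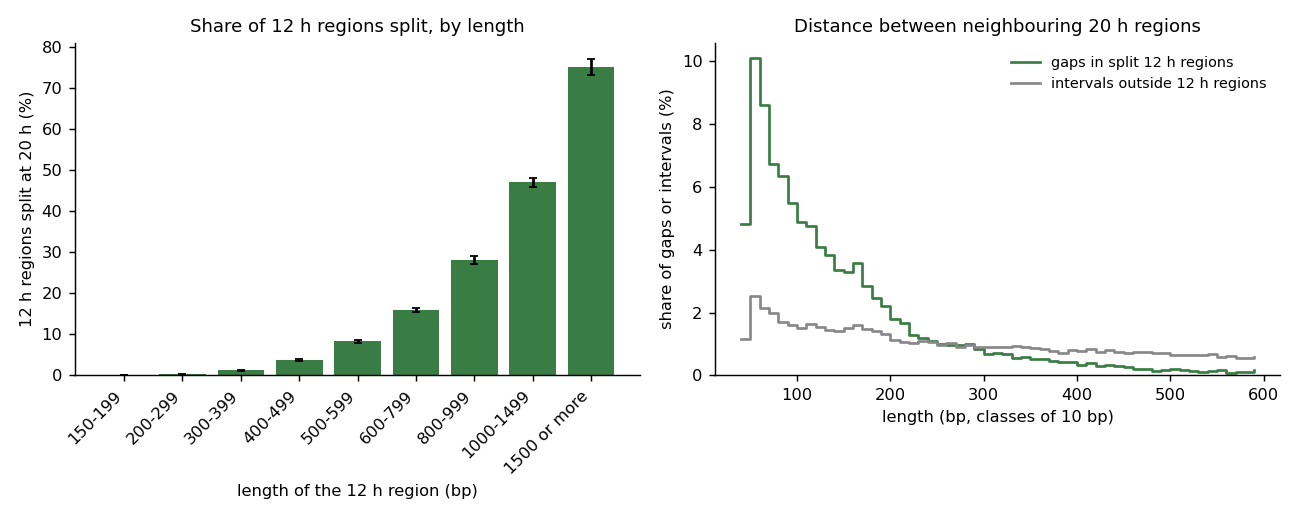
Left, share of 12 h regions that were split at 20 h (per cent) by length of the 12 h region (bp), with 95% Wilson intervals that cover counting error only; it reaches 75.2% at 1500 bp or more. Right, share (per cent) of gaps in split 12 h regions, and of intervals between neighbouring 20 h regions outside 12 h regions, in length classes of 10 bp; gaps crowd at the short end, with a median of 116 bp.

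Some members sat close to the limit of the rule. The second longest overlap with a piece had a median of 178 bp. It was 1 to 10 bp in 249 split regions and under 50 bp in 1090. When at least 50% of a 20 h region had to lie inside, 11007 regions were still split. Just outside, 198 of the 138609 regions of the 12 h list with 1 overlapping 20 h region had a further 20 h region starting 0 to 9 bp beyond an end.

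Gaps were short. Their length ran from 46 to 1867 bp with a median of 116 bp and quartiles of 72 and 189 bp. There were 6616 gaps under 100 bp (42.0%), 12165 under 200 bp (77.3%) and 435 of 500 bp or more (2.76%). In classes of 10 bp the counts fell off with length, with small rises between some neighbouring classes. One of these lay at 160 to 169 bp, with 562 gaps between 519 in the class before and 449 in the class after, and the intervals between 20 h regions outside 12 h regions had 778 between 727 and 712 there. Centres of neighbouring pieces lay 457 bp apart in the median, with quartiles of 356 and 595 bp. In regions with 2 pieces the centre of the gap lay at 37.5% of the length from the nearer end in the median. By its definition a gap lies between pieces and cannot reach an end, so this place follows in part from the rule. The longer piece exceeded the shorter by a median ratio of 1.62. In 2222 gaps (14.1%) the length was 46 to 58 bp, shorter than any separation in the 12 h list, and in 1827 split regions (13.0%) every gap was of that kind. When 20 h regions closer than 59 bp were joined first, 12261 regions were still split, and when those within 100 bp were joined, 8365.

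Split regions left 32.6% of their total length of 12.8 Mb uncovered at 20 h, against 29.5% in the regions with a one-to-one match. Gaps made up 19.3% of the length and uncovered ends 13.3%, so that 59.1% of the uncovered bases lay between pieces. Per region the uncovered share had a median of 30.0% and quartiles of 19.6 and 42.5%, and it ran from 2.10 to 96.7%. In 3682 split regions (26.1%) less than 20% was uncovered, and in 1970 (14.0%) more than 50%. Both ends were covered in 2939 regions, 1 end was uncovered in 6885 and both in 4264. A piece reached beyond an end of the 12 h region in 9508 regions (67.5%), so that the 20 h bounds were not merely nested inside the 12 h bounds.

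Library peaks overlapped pieces about as often as other 20 h regions, but pieces held summits less often. Peaks of technical replicate 1 overlapped 67.9% of the pieces, those of technical replicate 2 overlapped 80.8% and those of replicate 2 overlapped 47.8%, against 67.4%, 84.4% and 47.5% of the 20 h regions with a one-to-one match. A peak in both biological replicates was present at 44.3% of the pieces and at 43.2% of the one-to-one regions weighted to the same lengths, a difference of 1.07 percentage points with a 95% counting error of 0.625, and the sign turned, to -0.17 without the weighting and to -0.15 without technical replicate 1. At 1.65% of the pieces no library had a peak. The fold enrichment of the best peak at a piece, the read density at the summit over the local background, had medians of 3.07, 2.98 and 2.92 in the 3 libraries, against 3.20, 3.01 and 2.92 at one-to-one regions. The log2 ratio averaged -0.02 ± 0.03 (SD, n = 2 biological replicates). A summit in both biological replicates lay in 37.3% of the 29694 pieces and 41.7% of the one-to-one regions, and a summit in all 3 libraries in 23.2% and 27.4%, without weighting by length. A peak that covers a gap overlaps both neighbouring pieces but has a single summit. The rule, which picks neighbouring pieces, therefore bears on the summit shares, and its part in them was not tested.

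Which of 2 neighbouring pieces was the stronger was only partly shared between libraries. In regions with 2 pieces that a library held apart, the stronger peak exceeded the weaker by a median ratio of 1.28 in technical replicate 1 and 1.26 in technical replicate 2, while in replicate 2 the ratio was 1.32. Over all pieces with a peak the range was itself narrow, with quartiles of 2.60 and 3.71, 2.53 and 3.54, and 2.45 and 3.65 in the 3 libraries. The ratio for pieces that are not neighbours was not computed. Technical replicate 1 and replicate 2 gave the higher value to the same piece in 553 of 916 regions (60.4%), technical replicate 2 and replicate 2 in 702 of 1141 (61.5%), and the technical replicates in 57.4% of 2436. The share between the technical replicates was thus not above that between biological replicates, though each pair was compared over its own set of regions and the difference was not tested.

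Whether a gap was empty or held a missed call was read from the 3 libraries, whose reads also entered the pooled 20 h list, so that the libraries are not independent of the rule. A library peak entered by at least 1 bp in 33.3% of the gaps in technical replicate 1 and 47.3% in technical replicate 2, while in replicate 2 it was 28.0%. In at least 1 library this was so for 84.5% of the gaps, against 83.0% of the 48713 intervals between neighbouring 20 h regions that no 12 h region touched, or 78.7% when these were weighted to the lengths of the gaps. In both biological replicates it was 14.9% of the gaps, against 7.10% of the weighted intervals, and in all 3 libraries 1.19% of the gaps. These shares rest on the number of libraries: the share in both biological replicates was 9.33% of the gaps against 3.18% of the intervals without technical replicate 1, and 6.78% against 4.23% without technical replicate 2. The share in at least 1 library was 54.5% against 49.5% without technical replicate 2, and without replicate 2 it was 71.4% of the gaps against 71.6% of the intervals, so that the sign of the difference turned. Most of these entries were the flank of a peak: of the gaps with a peak, 69.8%, 63.7% and 55.5% were neither covered at every base nor held a summit.

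A stricter reading gave fewer bridged gaps. Every base of the gap lay in a peak in 8.14% of the gaps in technical replicate 1 and 15.2% in technical replicate 2, while in replicate 2 it was 9.50%. In at least 1 library 31.3% were covered, against 7.82% of all outside intervals and 26.3% of those weighted to the same lengths, the outside intervals being longer with a median of 470 bp. In both biological replicates 218 gaps were covered (1.38%), against 0.607% of the weighted intervals, and in all 3 libraries 0 of 15741. Without technical replicate 2 the share covered in at least 1 library was 17.2%, against 14.6% of the weighted intervals. The number covered in both biological replicates was then 72 (0.457%, against 0.357% of the weighted intervals). Without technical replicate 1 that number was 146 (0.928%, against 0.250%). The smallest distance that a list keeps between regions differs between the libraries, as given above, and its part in these shares was not tested.

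A summit lay inside the gap in 2.25%, 2.15% and 3.82% of the gaps in the 3 libraries, against 1.67%, 0.853% and 1.53% of the weighted intervals. The difference was 0.575, 1.30 and 2.29 percentage points, positive in each library, and averaged 1.61 ± 0.957 (SD, n = 2). With 2 biological replicates an exact two-sided test cannot go below p = 0.5, so no test is given. For entry by at least 1 bp the differences were -6.27, 6.96 and 13.9 points, so that the technical replicates of the same biological replicate had opposite signs, and the mean of 7.11 ± 9.57 (SD, n = 2) was smaller than its spread. It was 3.80 points without technical replicate 2 and 0.345 without replicate 2. Against outside intervals whose neighbours both overlapped a 12 h region, 7123 in number, the difference for entry was -9.89, 11.6 and 5.83 points, again with opposite signs in the technical replicates.

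**Figure D2:**
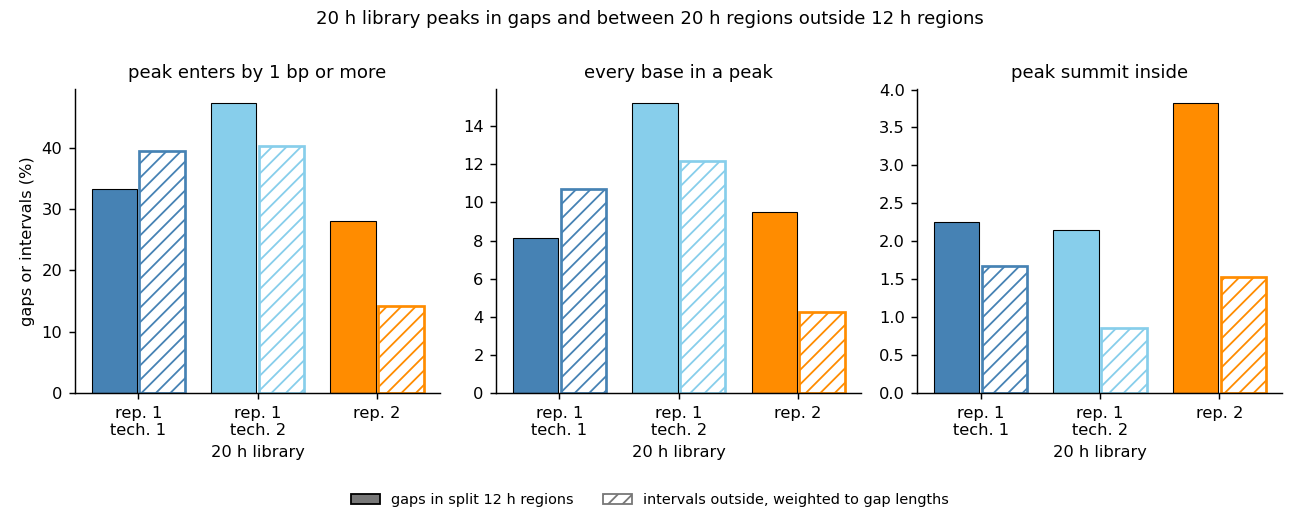
Share (per cent) of gaps in split 12 h regions (filled) and of intervals between 20 h regions outside 12 h regions, weighted to gap lengths (hatched), that a peak of each 20 h library entered, covered at every base or had its summit in. Technical replicate 1 is lower in the gaps for entry (33.3 against 39.5%), technical replicate 2 (47.3 against 40.3%) and replicate 2 (28.0 against 14.2%) are higher; summits are more frequent in the gaps in all 3.

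Peaks with their summit in a gap were weaker than peaks with their summit in a piece. Median fold enrichment was 2.26 for 358 summits in gaps, against 3.04 for 21413 summits in pieces, in technical replicate 1. It was 2.20 for 344 against 2.93 for 25567 in technical replicate 2, and 2.29 for 621 against 2.92 for 13710 in replicate 2. The log2 ratio was -0.43, -0.41 and -0.35 and averaged -0.39 ± 0.05 (SD, n = 2). The interquartile ranges touched in each library, such as 2.04 to 2.60 in gaps and 2.58 to 3.67 in pieces of technical replicate 1. A summit in a gap marks by its place a peak that the pooled list did not keep there, so that the rule bears on this contrast as well. When the best peak overlapping the gap was taken instead, most of which belong to the neighbouring piece, the log2 ratio was 0.0088.

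Taking each gap in turn, a library could hold its pieces apart, cover it at every base, have a peak at only 1 of its pieces or at neither. How often the neighbours of an outside interval were held apart is not given, so the shares held apart have no background beside them. Technical replicate 1 held 6210 gaps apart (39.5%) and covered 1281 (8.14%), technical replicate 2 held 8039 apart (51.1%) and covered 2393 (15.2%), and replicate 2 held 2960 apart (18.8%) and covered 1495 (9.50%). A peak was seen at neither piece in 11.7%, 4.52% and 32.7% of the gaps. Replicate 2, which had the fewest peaks, could therefore judge the fewest gaps, 4455 with a peak at both pieces, of which 33.6% were covered and 66.4% held apart. In the technical replicates 17.1% of 7490 and 22.9% of 10431 such gaps were covered. Where pieces were held apart, their library peaks lay 214, 182 and 234 bp from each other in the median, and 59.8%, 52.9% and 55.2% of these gaps had no base in a peak of that library.

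Libraries often disagreed about a gap. At least 1 library held the pieces apart and none covered the gap in 9165 gaps (58.2%). In 2292 (14.6%) at least 1 library covered the gap and none held the pieces apart. In 2629 (16.7%) at least 1 library covered the gap and at least 1 other held the pieces apart. The remaining 1655 (10.5%) were decided by no library. Both biological replicates held the pieces apart in 2136 gaps (13.6%), and all 3 libraries in 778 (4.94%). The number in both was 1628 without technical replicate 1 and 1286 without technical replicate 2. These counts, too, have no values for outside intervals beside them. Among the 3505 gaps for which both biological replicates had a peak at both pieces within a single library, 217 (6.19%) were covered in both and 1864 (53.2%) in neither.

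The covered share went with gap length. In gaps of 46 to 58 bp, 20.2%, 37.5% and 20.3% were covered in the 3 libraries, and 71.2% in at least 1. At 100 to 149 bp it was 5.51%, 11.1% and 8.32%, and 24.7% in at least 1, and at 300 to 499 bp 0.156%, 1.17% and 1.32%, and 2.65% in at least 1. Of the 435 gaps of 500 bp or more, 1 was covered (0.230%), in technical replicate 2. Outside intervals went the same way, with 27.8%, 34.2% and 9.63% covered at 46 to 58 bp and 7.66%, 7.36% and 3.13% at 100 to 149 bp. In the gaps of 500 bp or more a summit lay inside in 22.8%, 28.3% and 28.3%, against 0.675%, 0.135% and 1.13% at 46 to 58 bp. A covered gap was thus more frequent among short gaps, and a summit inside among long ones. Length itself bears on both, since a short gap has fewer bases to cover and a long one more room for a summit. Summit shares of outside intervals by length are not given.

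**Figure D3:**
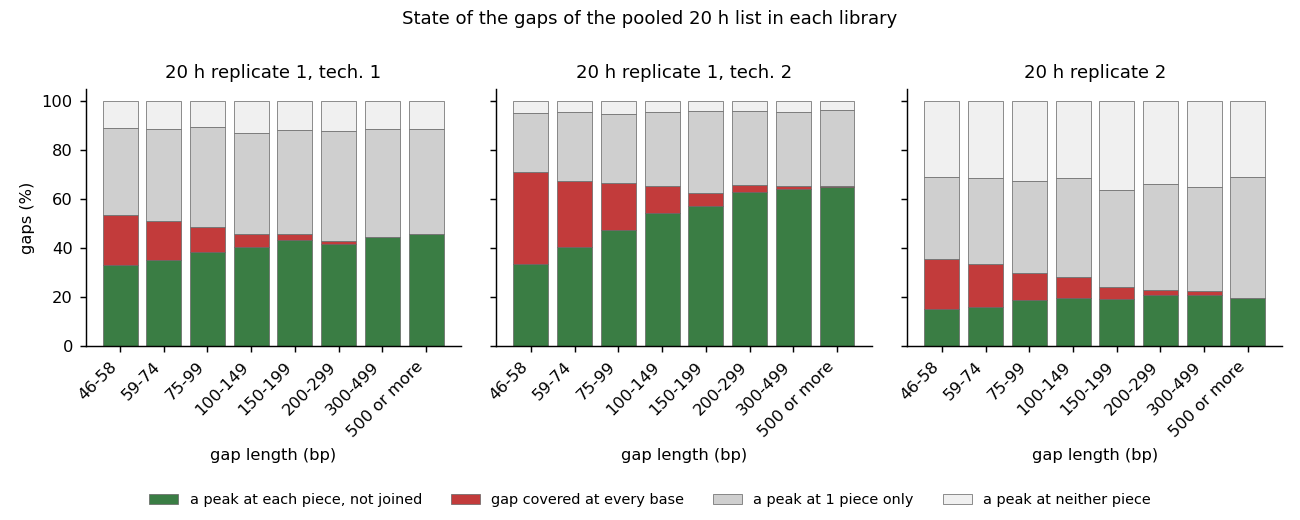
State of the gaps (per cent, stacked) in each 20 h library by gap length (bp): a peak at each piece with the gap not joined, the gap covered at every base, a peak at 1 piece only, or at neither. The covered share in technical replicate 2 is 37.5% at 46 to 58 bp and 0.230% at 500 bp or more, and replicate 2 has the most gaps with a peak at neither piece.

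Averaged over all gaps, every library showed a dip at the gap. Such a dip is built into the choice of gaps, because the reads of the libraries also entered the pooled 20 h list. It is given as a description. The share of gaps covered at the centre was 12.0% in technical replicate 1 and 19.5% in technical replicate 2, while in replicate 2 it was 13.5%. The highest shares were 50.8% at 190 bp, 67.5% at 180 bp and 32.0% at 170 bp from the centre. In replicate 2 the centre was thus covered about as often as the sequence 600 bp away (12.1%), while in technical replicate 1 it was covered less often (20.6% at 600 bp). The outside intervals, which also lie between 20 h regions, dipped as well. This profile held only a part of the 48713 outside intervals, so its shares do not stand for all of them. Those used had 11.0%, 10.6% and 4.60% at the centre, and their highest shares were 52.0%, 61.7% and 17.7%.

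**Figure D4:**
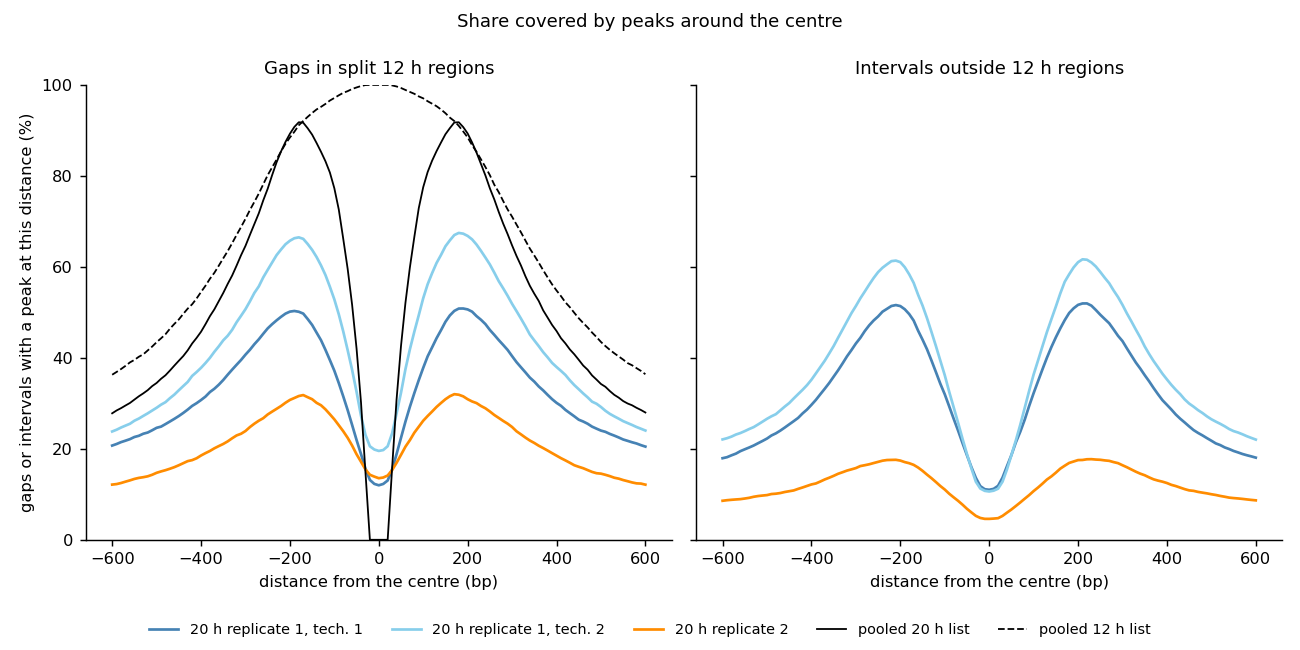
Share of gaps in split 12 h regions (left) and of intervals between 20 h regions outside 12 h regions (right) with a peak at each distance (bp) from the centre, for the 3 libraries of 20 h and, on the left, for both pooled lists. The right side holds only a part of the outside intervals. The rule fixes the shape of the pooled lines and bears on the library lines, since the reads of the libraries entered the 20 h list. The library lines fall to 12.0, 19.5 and 13.5% at the centre of the gaps.

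The gaps were sorted into 4 classes by the libraries. No library peak entered 2442 gaps (15.5%), against 17.0% of the outside intervals without weighting by length. These empty gaps had a median length of 106 bp. No outside values are given for the other classes or for the counts below. A peak entered at an edge only in 7402 (47.0%, median 149 bp). In 5603 (35.6%, median 80 bp) the gap was covered or held a summit in 1 biological replicate, and in 294 (1.87%, median 62 bp) in both. Where a library also lacks a peak at the pieces, an empty gap cannot be told from a region that the library missed as a whole. A peak at both pieces in all 3 libraries was present for 131 of the empty gaps (5.36%), which had lengths of 46 to 637 bp with a median of 92 bp. These 131 are the gaps for which no library gave a peak in spite of peaks on both sides in each, and the 218 covered in both biological replicates are the opposite end. Over regions, 2005 split regions (14.2%) had no library peak in any gap, 4135 (29.4%) had every gap covered in at least 1 library and 178 (1.26%) had every gap covered in both biological replicates.

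Uncovered ends were entered less often than gaps. A peak entered 21.7%, 32.5% and 19.5% of the 15413 uncovered ends in the 3 libraries, against 33.3%, 47.3% and 28.0% of the gaps. An end has a piece on 1 side only and had a median length of 65 bp, against 116 bp for gaps, so that lengths and flanks differ between them.

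The 12 h region with the most pieces lay on scaffold 261 from 14934 to 17495 and had 7 pieces of 150 to 395 bp and 6 gaps of 50 to 256 bp over 2562 bp, with 35.4% uncovered. A library peak was found at 5 of the pieces in each technical replicate of replicate 1 and at 3 in replicate 2. Only the sixth piece, with fold enrichments of 2.90, 2.82 and 2.68, and the second, with 2.22, 1.71 and 2.68, had a peak in each library. The gap of 59 bp between the third and the fourth piece was empty in every library. However, replicate 2 had a peak at neither of these pieces, and technical replicate 2 only at the fourth. None of the 6 gaps was covered at every base.

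There were 3 regions with 6 pieces. The first lay on scaffold 54 (563214 to 566103), another on scaffold 1241 (113776 to 116565) and the last on scaffold 387 (9109 to 11648). On scaffold 1241 the first 2 gaps, of 168 and 191 bp, were empty in all libraries, but replicate 2 had no peak at the pieces beside them. The gap of 47 bp there was covered in technical replicate 2. On scaffold 54 a gap of 74 bp was covered in technical replicate 1 and one of 132 bp in replicate 2. On scaffold 387 gaps of 94 and 46 bp were covered, the first in technical replicate 2 and the second in technical replicate 1, and 53.4% of the region was uncovered. The longest of the regions with 5 pieces, on scaffold 432 from 341067 to 345049, had only 9.97% uncovered, since 2 of its pieces were 1777 and 1197 bp long. Its gaps of 50 and 82 bp were covered in technical replicate 2.

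The longest split region, on scaffold 1081 from 202126 to 206418, was 4293 bp long and held the longest gap, of 1867 bp. Its gap of 212 bp was empty in all 3 libraries, with pieces on both sides found in each at a fold enrichment of 2.07 or more. In the long gap, peaks covered 205 bp in technical replicate 2 and 378 bp in replicate 2 and 0 bp in technical replicate 1. The next in length lay on scaffold 2160 (44934 to 48997), with a piece of 2586 bp and 744 bp uncovered at its left end. It was followed by the region of scaffold 432 described above and by regions of scaffold 3665 (8335 to 12232) and scaffold 339 (507792 to 511250). On scaffold 3665 the gap of 502 bp lay between pieces found in all 3 libraries, and peaks entered 15 bp in technical replicate 2 and 150 bp in replicate 2.

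The longest gap without any library peak between pieces found in all 3 libraries lay on scaffold 3169, in the region from 80516 to 81974. It was 637 bp long, from 80880 to 81516, and made up most of the 46.1% left uncovered. The piece before it had fold enrichments of 3.22, 3.43 and 2.92, and the piece after it 2.68, 3.01 and 2.92. Gaps of this kind of 348, 339, 326 and 287 bp followed on scaffolds 426, 1262, 899 and 1841. On scaffold 1841 the pieces were the strongest of these, at 3.75, 4.29 and 4.88 before the gap and 8.58, 4.29 and 4.83 after it, and the gap from 3138 to 3424 was empty in each library.

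The longest gap covered at every base in both biological replicates lay on scaffold 57 from 1460235 to 1460396, in the region from 1460092 to 1460607. The peak across its 162 bp had a fold enrichment of 2.44 in technical replicate 2 and 1.88 in replicate 2, and technical replicate 1 had no peak there. Further gaps of this kind measured 156, 123, 116 and 111 bp, on scaffolds 182, 81, 1819 and 203. In each of them 1 technical replicate of replicate 1 did not cover the gap. The covering peak on scaffold 203 reached 5.61 in replicate 2 and 2.50 in technical replicate 2, while technical replicate 1 held its pieces apart at 2.54 and 2.33.

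**Figure D5:**
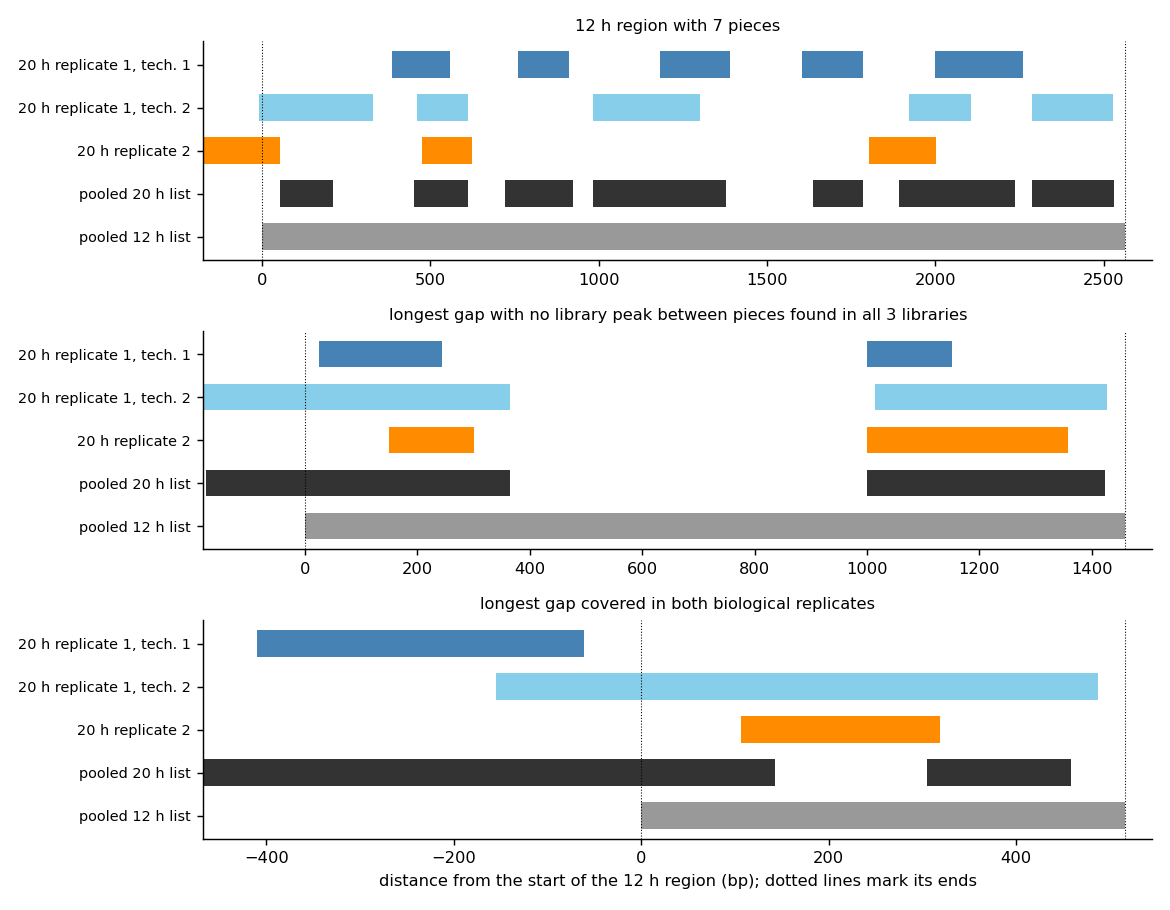
Peaks of the 3 libraries of 20 h and regions of both pooled lists by distance (bp) from the start of the 12 h region, for the region with 7 pieces, the region with the longest empty gap between pieces found in all libraries (637 bp) and the region with the longest gap covered in both biological replicates (162 bp). Bars show positions only, not peak height, and a bar may run past the ends of the region.

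Split regions also occurred in cis-regulatory modules that had been tested with reporter constructs, in which a stretch of DNA drives a reporter gene in the embryo. The study's table of 389 such modules of 37 developmental genes was used for coordinates and gene names only. Of 563 regions of the 12 h list that overlapped a module, 37 were split (6.57%), against 5.90% of the whole list. They had a median length of 845 bp, against 397 bp over all 563, and the 563 were themselves longer than the whole list with its median of 325 bp. The 40 gaps in modules had a median length of 150 bp. A library peak entered 85.0% of them and covered 30.0% at every base in at least 1 library, against 84.5% and 31.3% of all gaps.

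Split regions were found in modules of 20 of the 37 genes. Among signalling genes, Chordin, a secreted antagonist of BMP ligands, had 3 split regions of 32, while Bmp24, a BMP ligand, had 0 of 21 and Univin, a ligand of the TGF-beta family, 0 of 11. Transcription factor genes and the others had 34 of 500, summed over genes, with 1 region counted for 2 genes. The most were counted for Prox, which encodes a homeodomain factor, with 4 of 20. Six12, a homeodomain factor, had 3 of 16, Id, a helix-loop-helix protein without a DNA-binding region, 3 of 20, and Dach 3 of 46. Gsc and Nk1, both homeodomain factors, had 2 of 14 each, and Lim1, a LIM homeodomain factor, 2 of 43. These counts are too small to order the genes.

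The split region of Prox with the most pieces lay on scaffold 468 from 254093 to 256316 and had 4 pieces, with 30.9% uncovered. Its first gap, of 228 bp, was empty in every library, although technical replicate 1 gave the piece before it 3.66 and technical replicate 2 gave the piece after it 2.24. Replicate 2 had a peak at the second piece, at 1.82, and at the fourth, at 2.73. Its gap of 55 bp was covered in technical replicate 2. In the gap of 168 bp, peaks covered 119 bp in technical replicate 2 and 104 bp in replicate 2. The region of Six12, on scaffold 143 from 744407 to 746252, had 3 pieces and gaps of 267 and 176 bp. The longer gap was entered over 10 bp in technical replicate 2 and the shorter over 59 bp in technical replicate 1.

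The regions of Lim1, Gsc and Sip1 had 2 pieces each. In the region of Lim1, on scaffold 857 from 148438 to 149521, the gap of 534 bp was entered in each library, over 363 bp in technical replicate 1 and 7 bp in technical replicate 2, while replicate 2 covered 66 bp. The 363 bp belonged to a peak of 2.77, higher than the 1.86 of the same library at the first piece. The region of Gsc, on scaffold 468 from 346205 to 346983, had pieces of 150 and 161 bp that were each found in 1 library, the first at 2.89 in technical replicate 2 and the second at 3.34 in replicate 2. No library saw both of its pieces, so that none could hold them apart. Of its gap of 152 bp, peaks covered 106 bp in replicate 2 and 7 bp in technical replicate 2. In the region of Sip1, whose vertebrate counterpart is a zinc finger factor that binds Smad proteins, on scaffold 5 from 892954 to 894176, peaks of technical replicate 1 covered 274 of the 384 bp of the gap but left the pieces apart.

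Among the forkhead genes, the region of FoxK, on scaffold 406 from 395250 to 396462, had both pieces in each library, at 3.40, 3.35 and 1.99 and at 2.44, 3.69 and 2.65. Its gap of 426 bp was held apart in all 3, with 263 bp covered in technical replicate 2. In the region of FoxG, on scaffold 3 from 2065674 to 2066518, 370 bp at the right end were uncovered and the gap was 100 bp long, held apart in replicate 2 only. In the region of FoxN23, on scaffold 592 from 183290 to 184106, the gap of 284 bp was held apart in technical replicate 1, with 126 bp covered. The region of Elk, an ETS-family factor, on scaffold 630 from 448432 to 449260, had 63.0% uncovered and a gap of 259 bp of which 44 bp were covered in technical replicate 2. The region of Id, on scaffold 376 from 139507 to 140631, had a gap of 367 bp that was empty in every library, but replicate 2 had no peak at either of its pieces.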

How the data were processed

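ATAC-seq peak lists of 20 h and 12 h embryos were used. Reads were mapped by the authors to genome version 3.1 in the ENCODE-DCC atac-seq-pipeline, whose MACS2 step (version not given in the sources used here) kept peaks with p up to 0.05. Each list was limited to 300000 peaks, in the pooled lists before merging. The deposited pooled lists hold start and end of merged regions (positions, no score). The deposited library lists give the fold enrichment ratio, the −log10 p-value, the −log10 q-value and a score of each peak; the score was not used. Replicate numbers, technical replicates included, came from the labels; technical replicates were averaged before means and SD over 2 biological replicates, and nothing in the labels pairs the stages. Reads per library are not in the lists, so intervals (Wilson, 95%) cover counting error only.

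Overlaps were computed in Python 3.11.15 with numpy 2.4.6, pandas 2.3.3 and scipy 1.17.1, and the functions were checked on 40 simulated sets, with 0 wrong. Outside intervals were weighted to the gaps in length classes of 50 bp. Named regions were the 5 with the most pieces, the 5 longest, the 5 longest empty and covered gaps, and 10 of tested modules. The members and lists were chosen with earlier results of these data known.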

Additional observations from a re-analysis of the deposited data

How the results depend on the processing

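The number of split regions, 14088, stayed within 1.5 times under 5 of 7 settings, and was 8365 with 20 h regions within 100 bp joined and 3694 with only 20 h regions that had a peak in both biological replicates. The uncovered share, 32.6%, was 32.2% with at least 50 bp of overlap, 32.3% with at least 50% of the 20 h region inside, 33.0% and 36.7% with 20 h regions within 50 and 100 bp joined, 31.3% with 20 h regions in both biological replicates, 31.4% with a library peak of −log10 p of at least 3, and 33.7% with regions closer than 59 bp joined, a setting chosen after seeing the data. The median gap, 116 bp, was 123, 175, 105, 107 and 133 bp under the last 5 of these.

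The share of gaps with a peak in at least 1 library, 84.5%, and in both biological replicates, 14.9%, was 42.3 and 2.04% when 50% of the gap had to be covered, 31.3 and 1.38% for every base, 7.61 and 0.451% for a summit, 85.8 and 17.3% in gaps of at least 100 bp, 88.3 and 21.3% in gaps of at least 200 bp, 64.4 and 5.73% with −log10 p of at least 3 for each peak, and 61.9 and 4.23% with q below 0.05. In gaps of at least 72 bp, added after seeing the data, the share in both replicates was 15.9%. Leaving out each library gave 54.5 to 71.4% for at least 1 library and, where both replicates remained, 6.78 to 9.33%. The same shares of the outside intervals, and the covered gaps and pieces held apart without each library, were added after seeing the data.

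The log2 fold enrichment in gaps against pieces, -0.39, was 0.0088 with the best overlapping peak and -0.23 with the same p limit, and -0.42 to -0.38 without each library. The difference in gap support between split regions and outside intervals, 7.11 points, kept its sign under 9 settings, at 0.345 to 10.4 points without each library. The difference in piece support, 1.07 points, was -0.17 without weighting, -1.81 with that p limit, and -0.15 to 0.983 without each library, the negative value without technical replicate 1. The causes were not tested. No paired analysis was possible because only pooled regions of the 12 h stage were used. Replicate 2, with the fewest filtered reads and peaks, had a peak at both pieces of 4455 of 15741 gaps.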
